A study of Drosophila melanogaster with 4 samples.

Results

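The cytochrome P450 family was examined in adult heads of wild-type *Drosophila melanogaster*, from which polyadenylated RNA had been profiled by 3′-seq. Members were the genes of the deposited count table whose FlyBase symbol has the form *Cyp*, number, letters, number, as in *Cyp6a17*. Of 13608 gene identifiers, 82 met this rule, among them the copies *Cyp12d1-p* and *Cyp12d1-d*. The cyclophilin genes that share the *Cyp* prefix were left out by the rule. All libraries belong to 1 condition with 4 replicates, and no mutant, transgene or treatment is named in their labels. Per the paper's methods, the RNA came from head powder cross-linked with UV, as lysate cleared by centrifugation. The wild type of the study is *w1118*, with flies of both sexes. The series record speaks of independent lines, and how many of them the replicates stand for is not given in the sources used here.

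Cytochrome P450 enzymes are heme proteins that insert 1 atom of molecular oxygen into a substrate. Enzymes in the endoplasmic reticulum take their electrons from the reductase Cpr, in part by way of cytochrome b5, whereas mitochondrial enzymes take them from a ferredoxin and its reductase. Insect P450s fall into 4 clans. The CYP3 and CYP4 clans are large and hold many enzymes of plant toxins, insecticides, fatty acids and odorants, while the CYP2 and mitochondrial clans hold the enzymes of ecdysteroid hormones beside others. In the fly head, P450s are known from the fat body, glia, the antenna and the cuticle-forming epidermis.

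The counts on genes summed to between 8753359 and 13434565 per library. They are given as counts per 1000000 counts on genes (CPM). Because a 3′-seq read marks the end of a transcript, the read number does not grow with transcript length and levels of different genes can be set side by side. A count of 0 allows up to 3 counts, which is between 0.223 and 0.343 CPM in these libraries. The libraries carried head markers throughout, with 9 photoreceptor genes summing to between 29362 and 39571 CPM, 5 neuronal genes to between 2127 and 3748 CPM, 3 glial genes to between 1372 and 2731 CPM and 6 head fat body genes to between 6063 and 13253 CPM. The fat body sum was lowest in replicate 1. Replicate 1 also stood apart in genes of the trunk. The sum of 22 midgut genes was 1118 CPM there and 173 to 233 CPM in the other libraries, and 19 of the 22 had their highest value there. For 10 genes of the male accessory gland the sum was 499 CPM against 7.01 to 75.7 CPM, and for 9 testis genes it was 227 CPM against 5.93 to 41.2 CPM. For all 3 of these tissues replicate 4 had the next highest sum. The 9 ovary genes summed to between 6.18 and 18.4 CPM and the 4 Malpighian tubule genes to between 3.43 and 17.7 CPM, with the defining tubule gene *Uro* at 0 in every library. Of 4 oenocyte genes, *Desat1* was at 371 to 664 CPM, *eloF* was at 0 in every library, and *desatF* and *FASN3* were not analysed here. In RNA taken in bulk from head lysates, fewer cells of a type and less RNA per cell cannot be told apart. The part of other tissues in the levels of the P450 genes was not tested.

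The family took a small share of the counts on genes. Its members summed to 2830, 2578, 2624 and 3497 CPM in replicates 1 to 4. Replicate 4 was the highest, and the other 3 lay close together. The mean was 2882 ± 424 CPM (SD, n = 4), or 0.288% of all counts on genes. The 95% Wilson interval of the sum, which covers counting error only, ran from 2802 to 2858 CPM for replicate 1 and from 3462 to 3533 CPM for replicate 4, so that the spread between libraries was far larger than the counting error. When scaled by TMM, the sums were 2505, 2713, 3014 and 3270 CPM in replicates 1 to 4, and replicate 4 was again the highest.

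Genes that reached 10 counts in each library are called detected here. Of the 82 members, 53 (64.6%) were detected, whereas 57.0% of all genes of the table were. A mean of at least 10 CPM was reached by 44 members (53.7%, against 45.0% of all genes). Another 6 members (7.32%, against 12.6% of all genes) had 0 counts in every replicate: *Cyp303a1*, *Cyp313a2*, *Cyp313a3*, *Cyp313a5*, *Cyp316a1* and *Cyp6a19*. The remaining 23 had counts but did not reach 10 in each library, with means from 0.0186 CPM (*Cyp4ad1*) to 93.9 CPM (*Cyp6a17*). Of the detected members, 11 had a mean under 10 CPM, from 2.08 CPM (*Cyp308a1*) to 9.77 CPM (*Cyp4e1*). The median level was 10.6 CPM over all members and 7.01 CPM over all genes. Among detected genes, it was 18.2 CPM over the members and 25.4 CPM over all genes.

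A few members held most of the family's counts. The member with the highest mean took 19.8% of the summed mean CPM, the leading 5 took 48.1%, the leading 10 took 64.1% and the leading 20 took 81.2%. *Cyp28d1* led the family (FBgn0031689, chr2L:5210460-5212445 of dm6, plus strand). It belongs to a subfamily tied to nicotine resistance. It stood at 464, 413, 645 and 761 CPM in replicates 1 to 4 (571 ± 161 CPM), which was rank 302 among all genes. *Cyp6d5* followed (FBgn0038194, chr3R:14029228-14031483, plus strand) at 414, 380, 343 and 284 CPM (355 ± 55.6 CPM). *Cyp28d1* was above *Cyp6d5* in each of the 4 libraries, although the ranges of both genes overlapped. The third member, *Cyp313a1* (FBgn0038236, chr3R:14521049-14523064, plus strand), had 254, 213, 70.6 and 201 CPM (185 ± 79.4 CPM). It lay below *Cyp6d5* in every library with no overlap of the ranges, and replicate 3 was its lowest value by far.

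Below these 3 genes the order of neighbours was not settled by the replicates. Of the 43 pairs of neighbours among the 44 members with a mean of at least 10 CPM, 2 were ordered alike in all 4 libraries, namely *Cyp28d1* over *Cyp6d5* and *Cyp6d5* over *Cyp313a1*. Only the second pair had ranges that did not overlap. For the other 41 pairs the libraries did not share one order.

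**Figure D1:**
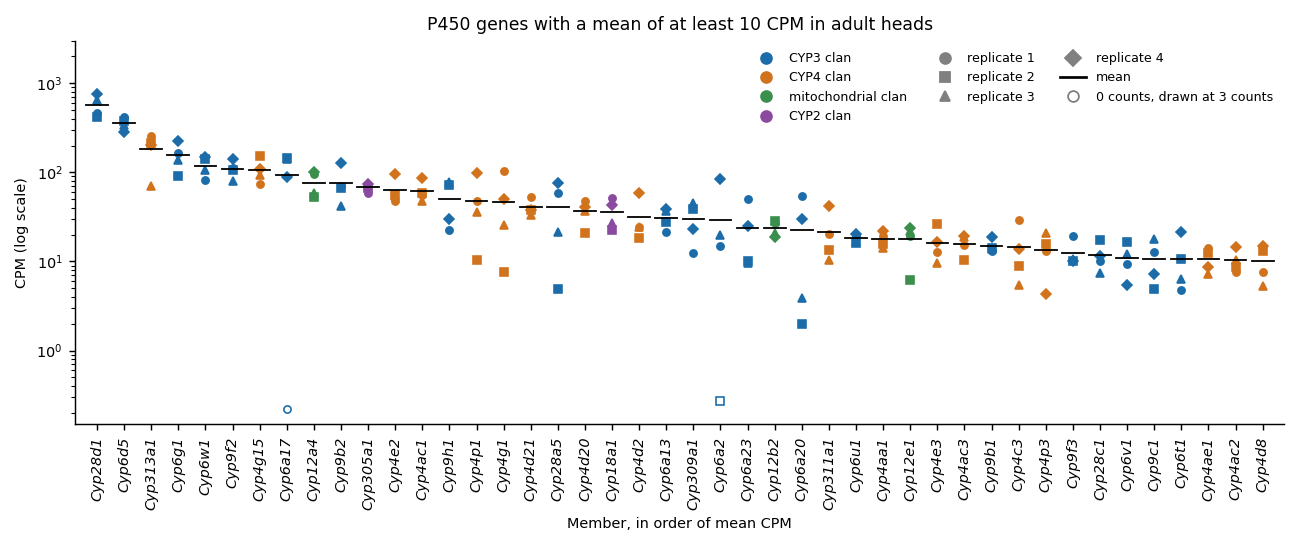
CPM on a log axis for the 44 P450 genes with a mean of at least 10 CPM, 1 symbol per replicate and a bar at the mean, coloured by clan. *Cyp28d1* and *Cyp6d5* stand above the rest, most neighbours overlap, and open symbols mark *Cyp6a17* in replicate 1 and *Cyp6a2* in replicate 2, which had 0 counts and are drawn at 3 counts.

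The CYP3 clan held most of the family's counts in every head library. Its 37 members summed to 1680, 1635, 1843 and 2234 CPM in replicates 1 to 4 (1848 ± 273 CPM), or 64.2% ± 4.48 of the family's counts. The 32 members of the CYP4 clan summed to 876, 732, 548 and 973 CPM (782 ± 185 CPM), or 27.0% ± 4.30. Replicate 3 had both the highest CYP3 share, 70.2%, and the lowest CYP4 share, 20.9%.

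The other clans were minor. The 9 mitochondrial members summed to 162, 120, 135 and 173 CPM (148 ± 24.3 CPM) and the 4 CYP2 members to 112, 91.6, 98.0 and 117 CPM (105 ± 11.8 CPM), which was 5.12% and 3.64% of the family's counts. The order CYP3, CYP4, mitochondrial, CYP2 held in 4 of 4 libraries for each of the 6 pairs of clans. An exact two-sided sign permutation over the 4 libraries gave p = 0.13 for each pair, before and after Benjamini-Hochberg adjustment over the 6 pairs. This is the smallest p that 4 libraries can give, so the test cannot pass 0.05. The difference between the closest pair, mitochondrial and CYP2, was 43.1 ± 12.5 CPM.

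**Figure D2:**
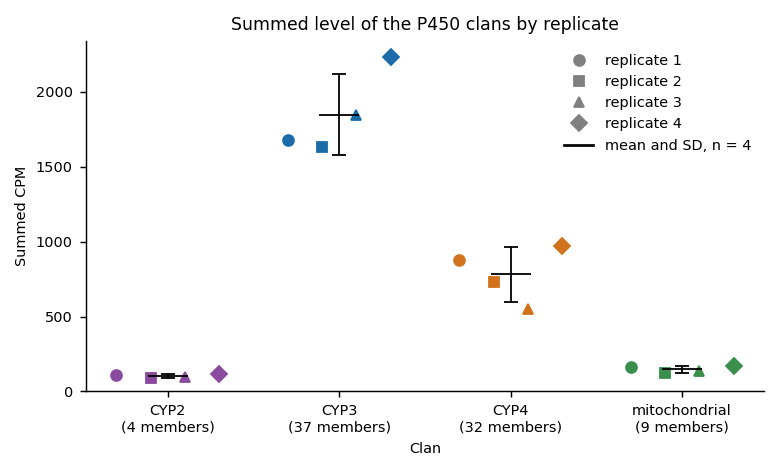
Summed CPM of the 4 P450 clans, 1 symbol per replicate, with the mean and SD (n = 4). The CYP3 sums lie between 1635 and 2234 CPM and the CYP4 sums between 548 and 973 CPM, and both exceed the mitochondrial and CYP2 sums in each library.

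The CYP3 and CYP4 clans differed little in the share of members detected, 24 of 37 and 21 of 32, beside 57.0% of all genes. The median member stood at 10.9 CPM in the CYP3 clan and 10.4 CPM in the CYP4 clan. By family, the 22 CYP6 members summed to 902 ± 73.2 CPM (12 detected), the 4 CYP28 members to 625 ± 179 CPM, the 22 CYP4 members to 567 ± 117 CPM and the 6 CYP9 members to 274 ± 42.5 CPM. All 6 CYP9 members were detected, whereas in the CYP313 family this held for 1 of 6, *Cyp313a1*. Of the others, *Cyp313b1* had a mean of 2.20 CPM, *Cyp313a4* of 0.465 CPM (0.272 CPM without replicate 1), and *Cyp313a2*, *Cyp313a3* and *Cyp313a5* were at 0.

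Among P450s linked to insecticides, 7 of 9 were detected, beside 57.0% of all genes and 64.6% of the family. *Cyp6g1*, whose overexpression gives resistance to DDT and neonicotinoids, had 165, 90.8, 139 and 226 CPM (155 ± 56.3 CPM). *Cyp6w1*, which has been linked to DDT resistance, had 82.8, 140, 105 and 149 CPM (119 ± 30.9 CPM), and *Cyp12a4*, which is tied to lufenuron resistance, had 95.7, 52.7, 58.5 and 99.7 CPM (76.7 ± 24.5 CPM). These 3 genes led the list and were present at more than 50 CPM in every head library.

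The rest of the insecticide-linked list was lower or uneven. *Cyp6a2*, which is overexpressed in a DDT-resistant strain, had 15.0, 0, 19.9 and 83.3 CPM, with a mean of 29.5 CPM that was 11.6 CPM without replicate 4. *Cyp6a8*, a gene induced by caffeine and barbiturates, had 8.36 ± 3.35 CPM, and its neighbour *Cyp6a9* had 4.78 ± 2.56 CPM. *Cyp6g2*, the neighbour of *Cyp6g1*, had 3.35, 0.450, 0.228 and 0 CPM, so that replicate 1 supplied most of its mean of 1.01 CPM, which was 0.226 CPM without that library.

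*Cyp12d1-p* and *Cyp12d1-d*, mitochondrial P450s induced by many xenobiotics, moved together over the libraries. *Cyp12d1-p* had 1.34, 16.9, 11.7 and 4.40 CPM and *Cyp12d1-d* had 0.819, 7.82, 9.03 and 1.78 CPM. Both were lowest in replicate 1, next lowest in replicate 4 and higher in replicates 2 and 3. The copies are near-identical, and how reads with several map positions were counted is not given in the sources used here, so their levels are uncertain one by one. The 9 insecticide-linked genes together summed to 380, 319, 352 and 583 CPM (408 ± 119 CPM), highest in replicate 4.

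P450s with known roles in behaviour or sex differed in how steady they were. *Cyp4d21* (sxe1), which is male-biased in the head and tied to courtship, had 52.7, 37.9, 33.4 and 37.9 CPM (40.5 ± 8.44 CPM). *Cyp6a20*, expressed in support cells of antennal pheromone-sensing hairs and known for its effect on male aggression, had 54.6, 1.98, 3.88 and 30.1 CPM. Its highest value was 27.6 times its lowest, the widest ratio among the 53 detected members, and its mean of 22.7 CPM was 12.0 CPM without replicate 1. *Cyp6a17*, which bears on temperature preference, had 0, 146, 140 and 89.7 CPM, and its neighbour *Cyp6a23* had 50.6, 10.1, 9.71 and 24.9 CPM (mean 23.8 CPM, and 14.9 CPM without replicate 1). The 4 genes of this list summed to 158, 195, 187 and 183 CPM (181 ± 16.2 CPM). The sums lay closer together than the single genes, with *Cyp6a17* at 0 and the other 3 at their highest in replicate 1.

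The CYP4G subfamily holds 2 genes in the fly. *Cyp4g1*, the oxidative decarbonylase that makes cuticular hydrocarbons in oenocytes, had 103, 7.55, 25.9 and 50.0 CPM. Its mean of 46.7 CPM was 27.8 CPM without replicate 1. *Cyp4g15*, its paralog, which is known from the nervous system, had 73.1, 152, 93.9 and 108 CPM (107 ± 33.3 CPM) and was above *Cyp4g1* in replicates 2, 3 and 4 but not in replicate 1. Of the oenocyte markers, *eloF* was at 0 in all libraries and *Desat1*, which other tissues use too, had 446, 371, 392 and 664 CPM.

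Other members of the CYP4 clan above 10 CPM were mostly from CYP4 itself. *Cyp4e2* (63.6 ± 22.3 CPM) and *Cyp4ac1* (61.9 ± 16.3 CPM) led them and were at least 47.3 CPM in every library. *Cyp4p1* had 48.1, 10.4, 35.4 and 98.5 CPM, and its mean of 48.1 CPM was 31.3 CPM without replicate 4. *Cyp4d20* (36.7 ± 11.6 CPM), *Cyp4d2* (31.3 ± 18.2 CPM), *Cyp311a1* (21.4 ± 14.0 CPM), which acts in midgut lipid metabolism, and *Cyp4aa1* (17.9 ± 3.56 CPM) came next. *Cyp4c3* had 29.3, 8.90, 5.48 and 14.0 CPM, and its mean of 14.4 CPM was 9.45 CPM without replicate 1. *Cyp4e3*, *Cyp4ac3*, *Cyp4p3*, *Cyp4ae1*, *Cyp4ac2* and *Cyp4d8* had means between 10.2 and 16.2 CPM.

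In the CYP3 clan, *Cyp9f2* (109 ± 25.1 CPM) and *Cyp9b2* (76.4 ± 36.6 CPM) were the leading CYP9 genes, and both were highest in replicate 4. *Cyp9h1* had 22.7, 71.4, 77.9 and 30.0 CPM and *Cyp309a1* 12.5, 38.3, 45.4 and 22.8 CPM, and both were higher in replicates 2 and 3 than in replicates 1 and 4. *Cyp28a5* showed the reverse, with 59.2, 4.86, 21.5 and 76.2 CPM. *Cyp6a13* had 31.1 ± 8.05 CPM and *Cyp6u1* 18.2 ± 2.09 CPM. *Cyp9b1*, *Cyp9f3*, *Cyp28c1*, *Cyp6v1*, *Cyp9c1* and *Cyp6t1* had means between 10.7 and 15.0 CPM. *Cyp28d2*, the other nicotine-linked gene, had 4.24, 0.270, 0.685 and 1.69 CPM, and its mean of 1.72 CPM was 0.880 CPM without replicate 1.

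After *Cyp12a4*, the highest mitochondrial members were *Cyp12b2* (23.8 ± 4.66 CPM) and *Cyp12e1* (17.8 ± 7.94 CPM). The rest of that clan had means under 10 CPM. *Cyp301a1*, which shapes the adult cuticle, had 2.46, 1.08, 0 and 3.09 CPM and was not detected by the rule of 10 counts. Of the CYP2 clan, *Cyp305a1* had 59.0, 66.7, 70.8 and 74.0 CPM (67.6 ± 6.46 CPM). Its coefficient of variation, 9.55% on CPM without TMM scaling, was the lowest of any detected member. The rank depends on the measure. In the edgeR fit with TMM scaling described below, *Cyp4d21* was lower (0.305, against 0.308 for *Cyp305a1*). *Cyp18a1*, the ecdysteroid 26-hydroxylase that inactivates the moulting hormone, had 52.1, 22.5, 27.2 and 43.2 CPM (36.2 ± 13.8 CPM). *Cyp303a1*, which is needed for sensory bristles, was at 0 in every library, and *Cyp304a1* had 0.372, 2.43, 0 and 0 CPM.

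Genes that supply P450s with electrons were present throughout, and all 6 on the list were detected, beside 57.0% of all genes. *Cpr*, the single NADPH-P450 reductase of the fly, had 143, 133, 70.6 and 154 CPM (125 ± 37.5 CPM), with replicate 3 the lowest. *Cyt-b5* had 616 ± 98.1 CPM and the cytochrome b5-like gene *CG3566* 148 ± 23.5 CPM. Of the mitochondrial electron carriers, the ferredoxin reductase gene *dare* had 41.3 ± 4.54 CPM, *Fdx1* 16.8 ± 2.79 CPM and *Fdx2* 60.3 ± 11.3 CPM.

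By contrast, 0 of 6 genes of ecdysteroid synthesis were detected, beside 57.0% of all genes, and *spo* was at 0 in all libraries. Their sum was 1.21 ± 0.977 CPM, and each gene had a mean of at most 0.539 CPM. That value was *sro*, which had counts in replicates 1 and 2 alone and a mean of 0.149 CPM without replicate 2, below the 0.423 CPM of *shd* in the same libraries. The list also names *phm* and *nvd*, which were not analysed here. The regulators of the xenobiotic response were all present, with *cnc* at 131 ± 30.0 CPM, its partner *maf-S* at 56.2 ± 16.1 CPM, its inhibitor *Keap1* at 10.1 ± 3.64 CPM and the nuclear receptor gene *Hr96* at 18.6 ± 5.09 CPM.

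Many fly P450 genes lie in tandem clusters, and in several clusters the neighbours had very different levels in heads. With at most 10000 bp between adjacent genes, 44 members fell into 16 clusters and 38 stood alone. Chromosome arm 2R carried 33 of the 82 members. The median level was 10.0 CPM for members in clusters and 11.3 CPM for those alone. In 14 clusters a ratio of the highest to the lowest mean could be formed, and it was over 10 in 8 of them. The ratio was not computed for neighbouring genes outside the family, so this count does not show a trait particular to P450 clusters.

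Where both genes had more than 3 counts over the 4 libraries, the widest ratio was in a pair on arm 2L. There *Cyp28d1* was 332-fold above *Cyp28d2* and higher in 4 of 4 libraries. *Cyp6g1* was 154-fold above *Cyp6g2*, *Cyp311a1* 99.6-fold above *Cyp318a1*, *Cyp4d2* 43.8-fold above *Cyp4d14* and *Cyp12a4* 23.9-fold above *Cyp12a5*, each in 4 of 4 libraries. These ratios rest on low members that were uneven between replicates. Without replicate 1 the *Cyp28d* ratio was 689 and the *Cyp6g* ratio 672, and *Cyp318a1* was left with 1 count of 11. Without replicate 4 the ratio of *Cyp12a4* to *Cyp12a5* was 60.96, that of *Cyp4d2* to *Cyp4d14* was 25.0 and that of *Cyp311a1* to *Cyp318a1* was 51.2. At the other end, *Cyp12d1-p* was 1.76-fold above *Cyp12d1-d* and *Cyp309a1* 3.54-fold above *Cyp309a2*. The *Cyp9b*, *Cyp4ac* and *Cyp9f* clusters had ratios of 5.10, 6.02 and 8.68, and in all of these the higher gene was higher in 4 of 4 libraries.

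The largest cluster spans 31730 bp on arm 2R (chr2R:14871366-14903095 of dm6) and holds 8 members in the order *Cyp6a22*, *Cyp6a17*, *Cyp6a23*, *Cyp6a19*, *Cyp6a9*, *Cyp6a20*, *Cyp6a8* and *Cyp317a1*. Their means were 5.58, 93.9, 23.8, 0, 4.78, 22.7, 8.36 and 7.29 CPM. Here *Cyp6a17* was at least 1377-fold higher than *Cyp6a19*, taking 3 counts over the 4 libraries as the limit for the latter, although in replicate 1 both were at 0 and the bound was 840-fold without replicate 2. In the pair *Cyp4d8* and *Cyp316a1*, with the latter at 0, the bound was 150-fold, or 95.8-fold without replicate 4. The cluster of *Cyp313a5*, *Cyp313a2* and *Cyp313a3* was at 0 as a whole. *Cyp4ad1*, beside *Cyp4e2* and *Cyp4e1*, had 1 count in all.

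**Figure D3:**
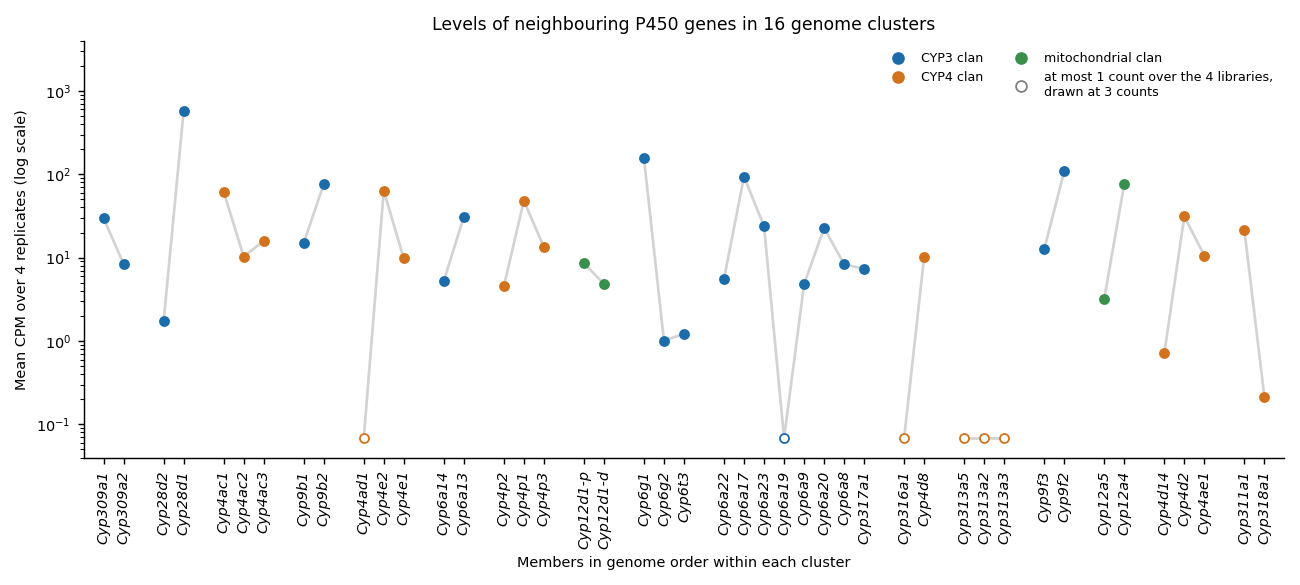
Mean CPM on a log axis for the 44 members that lie in 16 genome clusters, in genome order within each cluster, coloured by clan. Neighbours differ by up to 332-fold where both had more than 3 counts over the 4 libraries (*Cyp28d1* and *Cyp28d2*). Open symbols mark members with at most 1 count over the 4 libraries, drawn at 3 counts.

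Some levels are uncertain because annotated exons overlap. In the Ensembl annotation of dm6, 17 members share exon bases with another gene of the table, 15 of them at their own 3′ end, where 3′-seq reads fall. All of these partners lie on the opposite strand except *Ufsp1*, which shares 80 bp with *Cyp6u1*. *Cyp6g1* and *Cyp6g2* share 94 bp at their 3′ ends, and *Cyp28d1* shares 51 bp with *CG7742*. Of the members at 0, *Cyp303a1* shares 919 bp (33.0% of its exon bases) with *heix*, and *Cyp6a19* shares 397 bp (20.8%) with *Cyp6a9*. Antisense RNA genes outside the table cover 98.7% of the exon bases of *Cyp4d2*, 96.2% of *Cyp4d14* and 88.3% of *Cyp4ae1*. Another covers 98.2% of *Cyp9c1*, its 3′ end included. The levels of these members and the ratio of *Cyp4d2* to *Cyp4d14* are uncertain for the same reason. Whether strand was used in counting is not given in the sources used here, and without strand reads of such partners cannot be told apart.

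The spread between replicates differed widely among members. The biological coefficient of variation was estimated by edgeR after counting noise is set aside. EdgeR draws the estimate of each gene towards that of genes of like level, so a low coefficient is not the gene's own spread alone. It had a median of 0.411 over the 53 detected members and 0.376 over all 7754 genes fitted, and no test of this difference was made. Of the 53 members, 9 (17.0%) were in the top 10.0% of all genes by this measure. These comparisons were not matched for level, and the detected members had a lower median level (18.2 CPM) than all detected genes (25.4 CPM). The highest coefficients were those of *Cyp6a20* (0.785), *Cyp12d1-d* (0.734), *Cyp12d1-p* (0.699) and *Cyp28a5* (0.628), and the lowest those of *Cyp4d21* (0.305) and *Cyp305a1* (0.308). Members were highest in replicate 1 in 14 of 53 cases (26.4%, against 35.3% of all genes) and in replicate 4 in 25 cases (47.2%, against 29.1% of all genes). After TMM scaling these shares were 11 of 53 (20.8%, against 23.2%) and 18 of 53 (34.0%, against 24.9%). By Dixon's ratio, which sets the most distant replicate against the range of all 4, 1 replicate stood apart in 2 of 53 members (3.77%, against 5.16% of all genes).

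**Figure D4:**
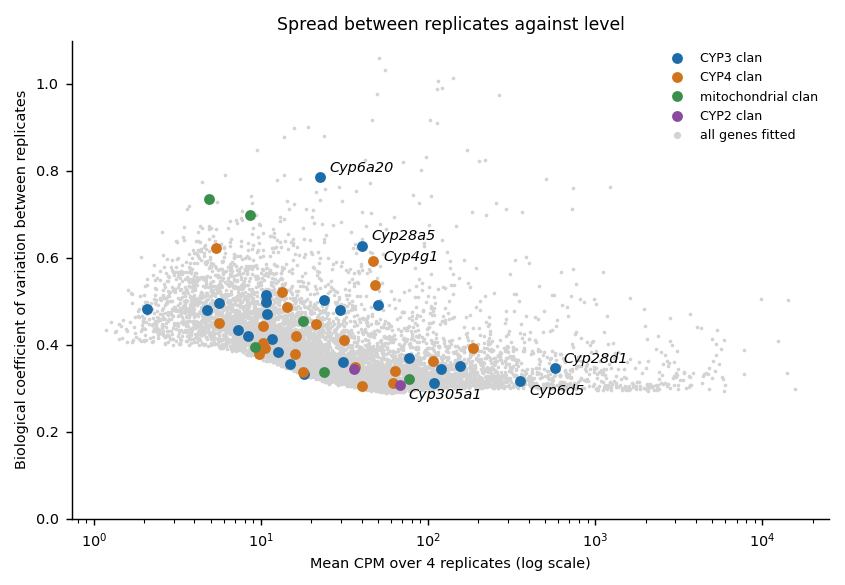
Biological coefficient of variation between the 4 replicates against mean CPM on a log axis, for all 7754 genes fitted (grey) and the 53 detected members (coloured by clan). *Cyp6a20* lies highest among members at 0.785, and *Cyp305a1* and *Cyp4d21* lie at the lower edge, near 0.31.

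In 9 of the 53 members (17.0%, against 9.40% of all genes, not matched for level) the highest replicate was over 5 times the lowest. Without replicate 1 there were 5 such members. In each of these 9 genes replicates 1 and 4 were both above or both below replicates 2 and 3. This held for 57.6% of all genes with such a ratio, and for 28 of the 53 members (52.8%) against 51.0% of all genes whatever their ratio. Replicates 1 and 4 were the higher in *Cyp4p1*, *Cyp4g1*, *Cyp28a5*, *Cyp6a23*, *Cyp6a20* and *Cyp4c3*, and the lower in *Cyp12d1-p*, *Cyp12d1-d* and *Cyp4d1*. Replicates 1 and 4 also had the higher midgut, accessory gland and testis sums given above. The same held for the sum of the photoreceptor genes (39571 and 35096 CPM, against 29491 and 29362 CPM). It also held for the glial sum (2731 and 1956 CPM, against 1400 and 1372 CPM), the Malpighian tubule sum and *Desat1*. Among the photoreceptor genes one by one, it held for *ninaE*, *Arr1* and *Arr2* only, and *trpl* went the other way. The neuronal and ovary sums were lower in replicates 1 and 4, and the fat body sum was not split in this way. Among the neuronal genes, *para* alone was lower there (344 and 256 CPM, against 970 and 1384 CPM), and *brp* was higher. Among the ovary genes, which were all low, *Cp19* and *Cp36* were lower there and *Vm32E* was higher. The part of any of these tissues in these 9 genes was not tested.

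In 5 members, 1 replicate had 0 counts although the other 3 predicted at least 50. Of 220 such member values, 5 (2.27%) were at 0, against 0.449% of the values of all genes. The widest gap was that of *Cyp6a17*, with 0 counts in replicate 1, where the other libraries predicted 1682 counts. Its lowest other value, 89.7 CPM in replicate 4, was at least 402-fold higher than the 3 counts that a 0 allows in replicate 1. *Cyp6a23*, whose annotated start lies 89 bp beyond the end of *Cyp6a17*, had its highest value in the same library, and the sum of both genes was 50.6, 156, 150 and 115 CPM. The sum was therefore also lowest in replicate 1.

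The other 4 zeros were smaller in expected counts. *Cyp6a2* had 0 counts in replicate 2, where 438 were predicted, and its lowest other value of 15.0 CPM was at least 55.5-fold higher than the limit. *Cyp309a2* had 0 counts in replicate 1 and 9.08, 14.7 and 9.83 CPM in the others, with 151 counts predicted. *Cyp6a14* had 0 counts in replicate 1 and 12.6, 5.71 and 2.62 CPM in the others, with 93.7 predicted. *Cyp4p2* had 0 counts in replicate 1 and 4.59, 0.800 and 12.7 CPM in the others, with 81.1 predicted, and was already uneven among those. Replicate 1, which held 4 of the 5 zeros, was the deepest library, and without it 1 such value remained, that of *Cyp6a2*.

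**Figure D5:**
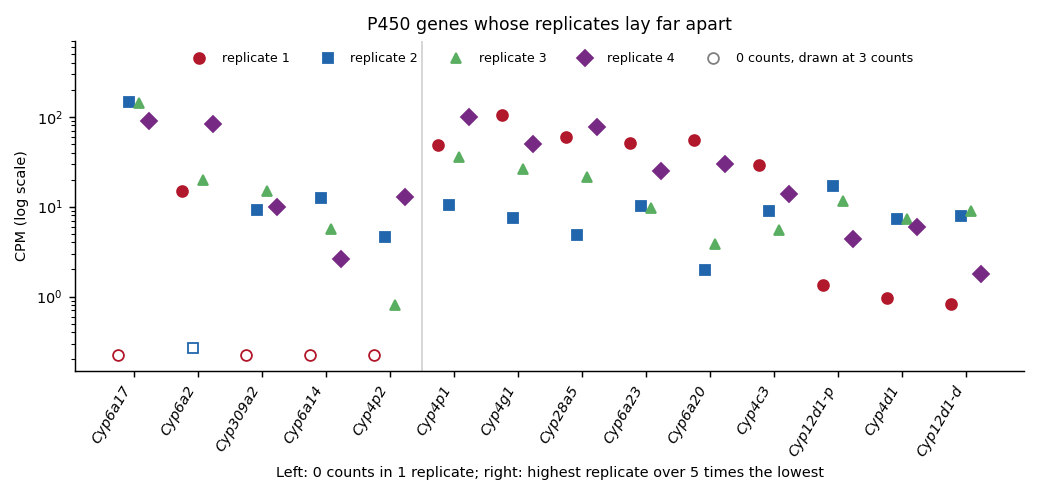
CPM on a log axis, 1 symbol per replicate, for the 5 members with 0 counts in 1 replicate (left, open symbols at 3 counts) and the 9 members whose highest replicate was over 5 times the lowest (right). Replicate 1 is at 0 in *Cyp6a17*, *Cyp309a2*, *Cyp6a14* and *Cyp4p2* and replicate 2 in *Cyp6a2*, and on the right replicates 1 and 4 lie on the same side of replicates 2 and 3 in every gene.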

How the data were processed

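Per the paper's methods, 10 ng of total RNA, taken from lysates of head powder that had been cross-linked with UV, was made into QuantSeq REV libraries (Lexogen). The authors removed poly(A) with fastp, aligned to dm6 with STAR 2.6.1b without introns and deposited raw counts per gene from featureCounts, not normalized. The paper names an Ensembl annotation for read counting of its RNA-seq data and does not say whether it applies to 3′-seq. The strand setting and treatment of reads with several map positions of these counts are not given in the sources used here. Intervals cover counting error only, and p-values would measure only the spread between these samples, which may be technical.

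Symbols, coordinates and exons came from Ensembl release 115 (dm6 coordinates), which matched 13513 of 13608 identifiers. *Cyp6a21*, *Cyp6a15Psi* and *Cyp6t2Psi* were not analysed here. Clans were assigned by CYP family number. Counts were divided by library totals (CPM), with 95% Wilson intervals and a limit of 3 counts for a 0. The coefficient of variation came from edgeR 4.0.16 in R 4.3.3 (TMM, intercept only, at least 10 counts in every replicate). On counts simulated for 7754 genes with a coefficient of 0.3, the median estimate was 0.300, and 174 of 200 genes simulated at 1.2 were among the 200 highest. The count predicted for a replicate is the mean CPM of the other 3 times its library total. The spread of each member's replicates was checked with Dixon's ratio. Alternatives were TMM, DESeq2 1.42.0 size factors, other count minimums and leaving out each replicate. Python 3.11.15, pandas 2.3.3 and scipy 1.17.1 were used elsewhere.

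Genes named are members with a mean of at least 10 CPM, those in the role lists (insecticides, CYP4G, behaviour and sex, cuticle and bristle, ecdysteroid inactivation, nicotine), redox partners, ecdysteroid synthesis genes, regulators, members at 0, and members far apart between replicates or in genome clusters. Members and lists were chosen with earlier results of these data known. Other members named were chosen after their values were seen.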

Additional observations from a re-analysis of the deposited data

Results flagged for a closer look

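Dixon's ratio, the gap of the most distant replicate to its neighbour divided by the whole range, was computed for the 76 members with any counts and for the sums of the family and its 4 clans, 81 values in all. One replicate stood apart in 10 members and in no sum. For normally distributed values chance marks about 1 in 20 groups, which is 4.05 of 81. Counts at or near 0 are not so distributed, and a gene counted in 1 library alone has a ratio of 1 by construction. The number marked can therefore not be read as an excess over chance. Among detected members the share was 2 of 53 (3.77%), against 5.16% of all detected genes. In *Cyp9f3* replicate 1 had 19.2 CPM and the others 10.2 to 10.7 CPM (ratio 0.936). In *Cyp4d2* replicate 4 had 58.2 CPM and the others 18.4 to 24.3 CPM (ratio 0.852). Replicate 4 also stood apart in *Cyp12a5*, with 9.46 CPM against 0.539 to 1.71 CPM (ratio 0.869), and in *Cyp6d2*, with 7.02 CPM against 0 to 0.989 CPM (ratio 0.859). In *Cyp6g2* replicate 1 had 3.35 CPM and the others 0 to 0.450 CPM (ratio 0.866), and in *Cyp304a1* replicate 2 had 2.43 CPM and the others 0 to 0.372 CPM (ratio 0.847). The remaining 4 had 11 counts or fewer over all libraries, most of them in replicate 1: *Cyp318a1* (ratio 0.847), *Cyp6a18* (ratio 0.849), *Cyp310a1* and *Cyp4ad1* (ratio 1 for both, with counts in replicate 1 alone). Of these 10 members, *Cyp9f3* and *Cyp4d2* reached 10 counts in each library.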

How the results depend on the processing

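No paired analysis was possible because all libraries belong to a single condition. The family's summed level ranged from 2677 to 2984 CPM when each replicate was left out, and was 2875 CPM with TMM and 2876 CPM with DESeq2 size factors. Without *Cyp28d1* the clan shares were 55.6% for CYP3, 33.5% for CYP4, 6.39% for mitochondrial and 4.54% for CYP2, in the same order. The median coefficient of variation was 0.519 over 69 members when zeros were kept, against 0.437 over all genes so fitted, and 0.390 to 0.436 when each replicate was left out. The number of members past the count minimum was 53 to 56 when each replicate was left out, 57 with at least 1 count and 52 with at least 1 CPM in every library, and 73 with at least 10 counts and 76 with at least 1 count in any library. Members at 0 where at least 50 counts were predicted numbered 1 to 5, and members whose highest replicate was over 5 times the lowest 5 to 8, when each replicate was left out, an alternative chosen after seeing the data, as were the cluster ratios without single replicates and the TMM-scaled counts of members highest in a replicate. Of the 51 members named for their level or role, 8 moved by over 1.5 times when a replicate was left out, 6 without replicate 1 and 2 without replicate 4 (*Cyp4p1* and *Cyp6a2*, 29.5 to 11.6 CPM), while none of 102 values under TMM or DESeq2 scaling moved beyond the replicate spread. Values under 0.343 CPM are at the limit of the shallowest library.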
